A study of Mus musculus with 6 samples.

Results

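Fibroblasts of the meninges and of the perivascular spaces were examined in single-nucleus RNA-sequencing (snRNA-seq) of mouse forebrain, where 1069 of 75867 nuclei (1.41%, 95% interval 1.33 to 1.50) met the rule used to find them. A nucleus was counted as a fibroblast nucleus when at least 3 of 8 genes (Col1a1, Col1a2, Dcn, Slc6a13, Lum, Bicc1, Col3a1 and Slc47a1) each had at least 1 UMI (unique molecular identifier, the tag that marks 1 captured RNA molecule). It also had to hold at most 1 UMI of the endothelial gene Flt1, at most 1 UMI of the mural genes Abcc9 and Notch3 together, and at most 1 UMI of Slc17a7, Slc17a6, Gad1 and Gad2 together, which mark excitatory and inhibitory neurons. Because expression chose these nuclei, their levels are descriptions, and no test was run on them.

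The study compared 3 WT and 3 Npc1-/- mice, littermates at postnatal day 16 that received no treatment. The mutants carried the nih allele of Npc1, a loss of function present in every tissue, and the mice were F1 hybrids of BALB/cJ and C57BL6/J parents heterozygous for that allele, with both sexes used. Nuclei came from flash-frozen forebrain, so meninges were present only as far as they stayed on the tissue. The 6 libraries of the joined count matrix are numbered here 1 to 6 by the suffix of their barcodes, and no source used here ties a suffix to a mouse. For that reason genotypes were not compared, and each value is given by library or as a range and median over libraries.

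Fibroblasts of the brain surface lie in the pia, arachnoid and dura and follow larger vessels into the tissue as perivascular cells. They make fibrillar collagens and a part of the basement membrane that covers the brain, they carry transporters that exchange solutes with the cerebrospinal fluid, and they secrete retinoic acid, BMPs, WNTs and IGF2, signals known to act on the developing cortex. Fibroblasts below the arachnoid barrier are commonly marked by Slc6a13, a GABA and taurine transporter also called GAT2, while Slc47a1, an exporter of organic cations, is known from fibroblasts at the arachnoid.

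The sequences around the starts of 3 genes are shown because the results that follow turn on them. Col4a5 and Col4a6 encode the α5 and α6 chains of type IV collagen and lie head to head on chromosome X, and Slc6a13 is one of the 8 rule genes, so that its high level in these nuclei follows from the rule. Each line gives RefSeq sequence of build GRCm38.p6 from 250 bases before to 50 bases after the annotated start, 5′ to 3′ on the strand of the gene, at chrX:141475169-141475468 (+) for Col4a5, chrX:141474027-141474326 (-) for Col4a6 and chr6:121300038-121300337 (+) for the first listed start of Slc6a13. Capitals mark a match to the TEAD site ACATTCC or its reverse GGAATGT.
Col4a5: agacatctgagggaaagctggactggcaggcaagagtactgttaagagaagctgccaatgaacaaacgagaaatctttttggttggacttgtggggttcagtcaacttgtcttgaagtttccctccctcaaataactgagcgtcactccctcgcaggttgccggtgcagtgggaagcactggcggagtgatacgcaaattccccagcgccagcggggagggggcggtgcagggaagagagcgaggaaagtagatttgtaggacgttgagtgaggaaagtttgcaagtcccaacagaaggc
Col4a6: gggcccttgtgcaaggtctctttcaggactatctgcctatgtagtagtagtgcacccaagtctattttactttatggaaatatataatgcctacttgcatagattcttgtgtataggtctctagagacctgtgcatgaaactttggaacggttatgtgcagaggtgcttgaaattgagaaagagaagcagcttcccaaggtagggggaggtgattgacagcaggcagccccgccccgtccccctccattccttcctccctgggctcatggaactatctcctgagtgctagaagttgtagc
Slc6a13: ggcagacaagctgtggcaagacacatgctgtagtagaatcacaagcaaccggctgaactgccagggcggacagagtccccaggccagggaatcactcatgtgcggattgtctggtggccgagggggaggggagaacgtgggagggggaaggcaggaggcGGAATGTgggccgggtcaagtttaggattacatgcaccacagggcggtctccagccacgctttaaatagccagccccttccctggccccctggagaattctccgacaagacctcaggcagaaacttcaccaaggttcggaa
G and C made up 52.7% of the Col4a5 sequence, 48.3% of that of Col4a6 and 59.0% of that of Slc6a13, beside a median of 52.7% over 32851 mouse promoter sequences of the same length. Of the listed and named genes that were higher in fibroblast nuclei than in both vascular classes below, 99 had a promoter sequence, and 7 of these (7.07%: Aldh1a1, Col3a1, Gm6260, Igfbp5, Ogn, Slc13a4 and Slc6a13) held the TEAD site on either strand, beside 3.85% of all promoters. Of the 7, Col3a1 and Slc6a13 are rule genes, which the rule placed in this set. The forkhead core TGTTTAC stood in 2 of the 99 (2.02%, Col6a1 and Slc7a11, beside 3.65% of all) and the T-box motif AGGTGTGA in 1 (1.01%, Aldh1a1, beside 1.28%). A match says only that these letters are in the window.

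The libraries held 173, 223, 255, 162, 159 and 97 fibroblast nuclei, in order from 1 to 6, which were 1.26%, 1.38%, 1.72%, 1.33%, 1.47% and 1.18% of their nuclei (median 1.36%). The share was highest in library 3 and lowest in library 6. Over the same libraries, endothelial nuclei (at least 3 of 8 endothelial genes) made up 6.48% to 8.34% in libraries 1 to 4 but 2.87% and 2.42% in libraries 5 and 6, and mural nuclei (pericytes and smooth muscle, by the same kind of rule) 1.93% to 2.20% in the first 4 against 0.713% and 0.949%. The shares of fibroblast nuclei in libraries 5 and 6, at 1.47% and 1.18%, thus stood much closer to those of the other libraries than the vascular shares did. Both vascular rules also set limits on fibroblast genes, given with the comparisons below. The median fibroblast nucleus held 3783 UMIs, with library medians from 2475 in library 6 to 4266 in library 4, and the median of all nuclei was 4957.

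**Figure D1:**
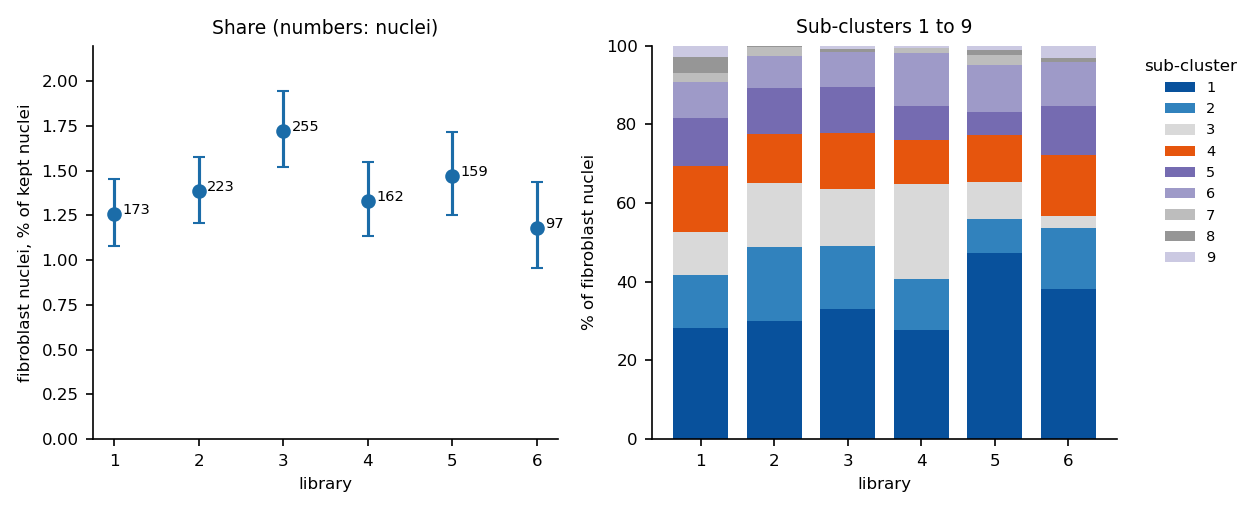
Left, fibroblast nuclei as a percentage of all nuclei kept in each library, as points with 95% binomial intervals and the number of nuclei beside each; right, the percentage of fibroblast nuclei in sub-clusters 1 to 9 by library as stacked bars. The share ran from 1.18% in library 6 to 1.72% in library 3, and sub-clusters 1 to 6 were present in all 6 libraries.

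Library 6 stood apart in a sex-linked gene. Xist, the RNA that coats the inactive X chromosome of females, was detected in 95.4%, 0.448%, 96.1%, 2.47%, 0% and 45.4% of fibroblast nuclei in libraries 1 to 6, and transcripts of Y-linked genes in 0%, 78.0%, 0.392%, 85.8%, 81.1% and 0%. Over all nuclei kept, Xist was found in 87.4% and 92.8% in libraries 1 and 3 and in 39.4% in library 6. Whether library 6 holds the nuclei of a single mouse was not tested, and its values are to be read with that limit. Without it the share of fibroblast nuclei was 1.44%, and in the comparisons below 4 of 543 log2 ratios of listed and named genes moved beyond their intervals and 0 called ones changed sign. Those ratios rest on summed UMIs, and library 6 held 324889 of the 4735438 UMIs of fibroblast nuclei. Leaving it out could thus move them little, and says nothing of the levels within library 6. Between libraries, 631 barcodes occurred more than once, 20 fibroblast nuclei had a barcode also seen in another library, and 0 pairs of fibroblast nuclei shared one.

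Npc1, the gene mutated in the study, encodes the lysosomal membrane protein that exports cholesterol. Its level in fibroblast nuclei was 38.5, 25.2, 30.6, 19.4, 33.2 and 33.9 CPM (the share of the UMIs of a class, scaled to 1000000) in libraries 1 to 6. The 6 values formed 1 range and none was near 0. The level over all fibroblast nuclei was 29.4 CPM, beside 30.9 CPM in endothelial and 36.4 CPM in mural nuclei, and 11.8% of fibroblast nuclei held a UMI against 12% of endothelial nuclei. Since no source ties a library to a genotype, and the tags lie at the 3′ end of transcripts, these counts check no label.

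The level of genes outside the rule moved with the number of rule genes detected. Nuclei just outside the rule, with 2 of the 8 genes but within its limits on vascular and neuronal genes, held Bmp6 at 159 CPM, the proline transporter gene Slc6a20a at 143 CPM and Col4a6 at 26.9 CPM, over 2230 nuclei. Nuclei just inside it, with 3 genes (622 nuclei), held the same genes at 844, 707 and 170 CPM, and nuclei with 4 genes (274 nuclei) at 1321, 896 and 336 CPM. The rule thus ends within a slope, and nuclei with 2 genes made up a larger number than the 1069 that were kept. Of the rule genes, Bicc1, an RNA-binding protein, was found in 90.3% of fibroblast nuclei, Col1a2 in 66.4%, Slc6a13 in 62.2%, Dcn, the proteoglycan decorin, in 48.8%, Col3a1 in 39.1%, Col1a1 in 34.5%, Slc47a1 in 14.7% and Lum, lumican, in 6.83%.

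**Figure D2:**
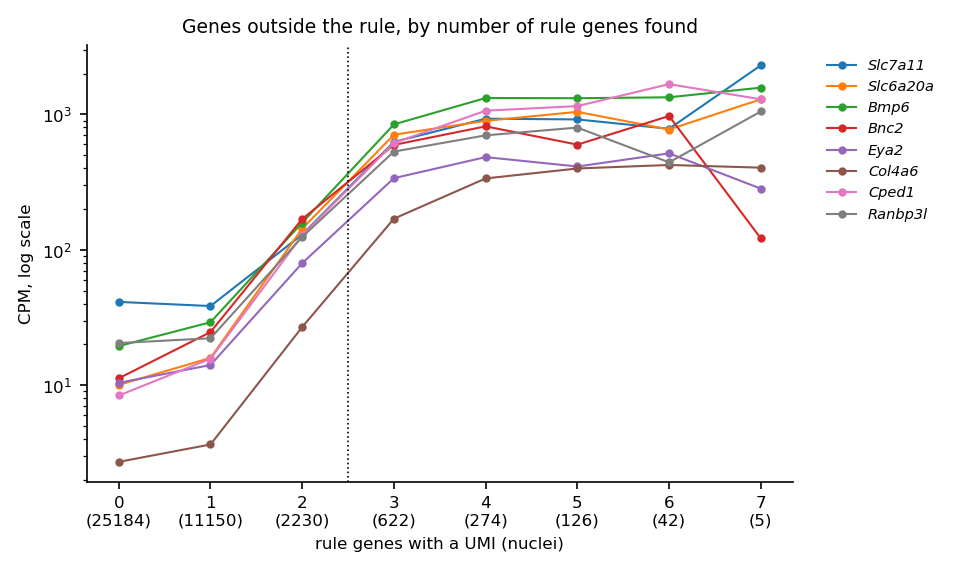
Level of genes outside the rule (CPM, log scale) in nuclei grouped by how many of the 8 rule genes had a UMI, with the number of nuclei under each step; the dotted line marks the minimum of 3. Bmp6 stood at 159 CPM with 2 genes, 844 CPM with 3 and 1321 CPM with 4.

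Fibroblast nuclei were set against 4531 endothelial and 1314 mural nuclei of the same libraries, the cells they lie beside along vessels. Both vascular rules also limited the UMIs of Col1a1, Col1a2 and Dcn. Nuclei that met the fibroblast rule as well, 50 by the endothelial and 29 by the mural rule, were left out of the vascular classes. Low levels of the fibroblast rule genes in these classes, and part of the ratios of those genes, thus follow from the rules. A gene was called higher or lower when the class sums differed at least 2-fold and the difference had the same direction in 6 of 6 libraries. Of 13206 genes tested, 699 were higher (5.29%) and 499 lower (3.78%) in fibroblast than in endothelial nuclei. Against mural nuclei 618 of 13175 were higher (4.69%) and 323 lower (2.45%), and 437 of the 12923 genes that could be called in both comparisons (3.38%) were higher in both. When nuclei with 3 or more UMIs of astrocyte, oligodendrocyte or myeloid markers were left out, 80 fibroblast nuclei remained and most list counts given below fell. The median log2 ratio of all tested genes was 0.03 over endothelial and 0.06 over mural nuclei. Since expression set the classes, these counts describe them and carry no test, and the intervals given with log2 ratios are 95% exact intervals that cover counting error only.

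**Figure D3:**
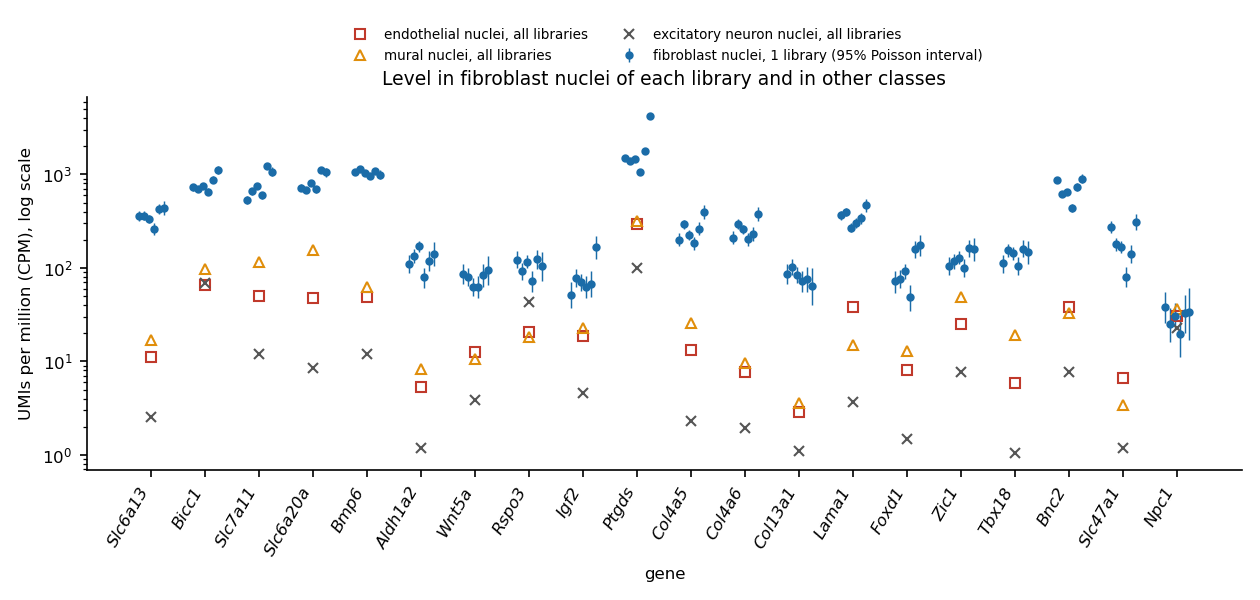
Level (CPM, log scale) of 20 genes in fibroblast nuclei of each of the 6 libraries (points, with 95% Poisson intervals) and, over all libraries, in endothelial (squares), mural (triangles) and excitatory neuron nuclei (crosses). Bmp6 stood between 956 and 1138 CPM in the libraries against 48.5 CPM in endothelial nuclei, whereas Npc1 lay at the level of the other classes.

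Collagen genes outside the rule were higher in fibroblast nuclei in 16 of 19 cases over endothelial and 14 of 19 over mural nuclei, 0 were lower, and the median log2 ratios were 2.26 and 2.00. In the 80 nuclei with few glial and myeloid UMIs, 1 collagen gene was called higher over each class. The count over all genes also fell there, from 699 to 138 over endothelial and from 618 to 112 over mural nuclei. Col13a1, a transmembrane collagen, stood at 86.4, 103, 83.9, 71.7, 76.3 and 64.6 CPM in libraries 1 to 6, against 2.88 CPM in endothelial and 3.61 CPM in mural nuclei. That is a narrow band, with log2 ratios of 4.86 (4.46 to 5.29) and 4.54 (3.92 to 5.23). Col23a1, a second transmembrane collagen, lay between 294 and 569 CPM (log2 ratio 3.48 over endothelial nuclei), and Col12a1, which binds the surface of collagen fibrils, between 40.1 and 151 CPM (3.22). The members not called over endothelial nuclei were Col5a3, Col16a1 and Col8a2, at log2 ratios of 0.86, 0.96 and 1.38.

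Basement membrane genes were split by chain. Of 16 tested, 5 were higher and 3 lower than in endothelial nuclei, and 6 were higher and 0 lower than in mural nuclei. Col4a6 stood at 211, 294, 258, 203, 229 and 379 CPM in libraries 1 to 6 and Col4a5 at 201, 292, 226, 183, 262 and 397 CPM. Library 6 was highest and library 4 lowest for both genes of the pair. This order is not particular to them. Of 134 listed or named genes higher than in endothelial nuclei, 80 were highest in library 6 and 64 lowest in library 4. Over endothelial nuclei Col4a6 was 32.9-fold higher (log2 5.04, 4.80 to 5.29) and Col4a5 18.3-fold (log2 4.19, 4.0 to 4.39), and over mural nuclei the log2 ratios were 4.71 and 3.24. Col4a1 and Col4a2, which encode the α1 and α2 chains found in most basement membranes and form a second head-to-head pair on chromosome 8, had log2 ratios of -0.88 and -1.0 over endothelial nuclei, of which only that of Col4a2 was called lower. That call ended without sub-clusters 3, 7 and 8, which are described below and were led by genes of other cell types (-0.84), and in sub-clusters 1, 2 and 4 alone (-0.64). Over mural nuclei they stood at -0.01 and 0.00.

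Laminin genes differed by chain as well. Lama1, the laminin α1 chain of the pial basement membrane, stood at 364, 396, 269, 305, 339 and 471 CPM, against 38.6 CPM in endothelial and 15.1 CPM in mural nuclei (log2 ratios 3.14 and 4.49). Lamc3, the γ3 chain, was higher over both classes (3.35 and 1.70). Lama2, the α2 chain, was higher over endothelial nuclei (2.40) but stood at 0.57 over mural nuclei, where its level was 350 CPM against 519 CPM in fibroblast nuclei. In sub-clusters 1, 2 and 4 alone Lama2 was called higher over mural nuclei as well (1.08), and the count of basement membrane genes higher over mural nuclei went from 6 to 10. In that setting the count over all genes went from 618 to 961, so the rise is not particular to this list. Lama5, the α5 chain of vessel walls, and Agrn, agrin, were lower than in endothelial nuclei (-2.14 and -1.52).

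Among genes of elastic fibres, proteoglycans and matricellular proteins, 14 of 21 tested were higher and 2 lower than in endothelial nuclei, and 13 were higher and 0 lower than in mural nuclei. With a minimum of 50 UMIs and 20 CPM the counts of higher genes were 4 and 6. Eln, elastin, lay between 95.7 and 140 CPM over the libraries (log2 ratios 1.67 and 2.44), Fbln1, fibulin 1, between 37.3 and 78.4 CPM (2.84 and 2.22), and Thbs2, thrombospondin 2, between 9.07 and 27.7 CPM (3.07 and 3.11). The genes lower than in endothelial nuclei were Fn1, fibronectin (-1.26), and Ltbp4, a TGF-β binding protein (-1.74). The call of Fn1 ended without sub-clusters 3, 7 and 8 (-0.93) and in sub-clusters 1, 2 and 4 alone (-0.65). Fn1 was higher than in mural nuclei (1.02). Of 11 enzymes that process collagen, 3 were higher over both classes and 0 lower. They were Loxl1, which helps cross-link elastin (2.50 and 1.95), Pcolce, an enhancer of procollagen cleavage (2.57 and 1.90), and Adamts2, a procollagen protease (2.61 and 2.38).

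Transporter genes were mostly higher in fibroblast nuclei. Of 19 tested, 14 were higher and 2 lower than in endothelial nuclei and 15 were higher and 0 lower than in mural nuclei, with median log2 ratios of 2.60 and 2.38. Slc6a13, a rule gene and not part of that list, stood at 361, 362, 331, 261, 430 and 437 CPM, against 11.2 CPM in endothelial nuclei. Slc6a12, its neighbour on chromosome 6 and a betaine and GABA transporter, lay between 31.2 and 61.6 CPM and was higher over both classes (log2 4.14 and 2.96). Slc6a20a stood at 719, 688, 800, 695, 1120 and 1053 CPM, and Slc7a11, the cystine and glutamate exchanger, at 529, 659, 758, 598, 1240 and 1068 CPM. For both genes libraries 5 and 6 were above libraries 1 to 4 over all fibroblast nuclei. In sub-clusters 1, 2 and 4 alone, described below, that order held for Slc7a11 but not for Slc6a20a, at 1156 CPM in library 4 against 1134 CPM in library 6. Their log2 ratios were 4.07 and 3.91 over endothelial and 2.38 and 2.72 over mural nuclei, and that of Slc6a20a over mural nuclei was 0.75 in the 80 nuclei with few glial and myeloid UMIs.

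Slc13a4, a sulfate transporter, lay between 76.9 and 204 CPM (log2 3.82 over endothelial nuclei), Slc22a6, the organic anion transporter OAT1, between 33.2 and 55.4 CPM (3.73), and Slc22a2, the organic cation transporter OCT2, between 22.6 and 73.9 CPM (3.91). Slc22a8, the organic anion transporter OAT3 that also acts at the blood-brain barrier, stood at 119 CPM in fibroblast and 136 CPM in endothelial nuclei and was not called there, while it was higher than in mural nuclei (1.78). The genes lower than in endothelial nuclei encode efflux pumps of the blood-brain barrier, Abcg2 (-1.05) and Abcc4 (-2.31). The call of Abcg2 ended without sub-clusters 3, 7 and 8 (-0.71) and in sub-clusters 1, 2 and 4 alone (-0.40).

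Retinoic acid genes were higher in fibroblast nuclei in 6 of 10 cases over endothelial and 7 of 10 over mural nuclei, 0 were lower, and the median log2 ratios were 1.09 and 1.08. Aldh1a2, the main enzyme of retinoic acid synthesis in the meninges, stood at 110, 135, 170, 79.0, 119 and 142 CPM, 24.5-fold above endothelial nuclei (log2 4.61, 4.32 to 4.93). Library 4 was again the lowest. Aldh1a1, a related enzyme, was higher by 2.26 and 1.02 on the log2 scale, and the retinoic acid receptor gene Rarb by 1.17 and 1.08. Cyp26b1, which degrades retinoic acid, lay between 3.23 and 43.1 CPM, highest in library 5 (2.09 and 2.91). Aldh1a3, a further enzyme of synthesis, stood at 2.53 CPM.

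**Figure D4:**
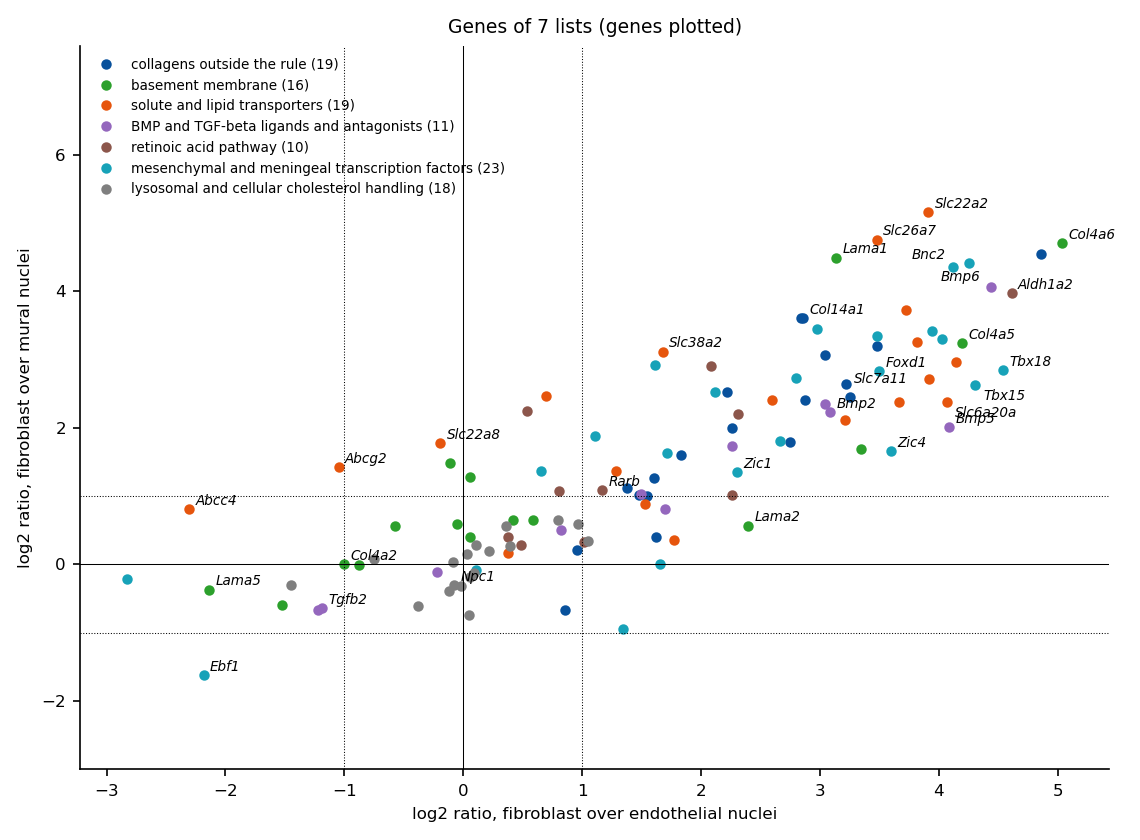
Log2 ratio of fibroblast over endothelial nuclei (horizontal) against that over mural nuclei (vertical) for the tested genes of 7 lists, 1 point a gene; dotted lines mark 2-fold. Col4a6 lies at 5.04 and 4.71 and Bmp6 at 4.44 and 4.06, Col4a2 at -1.0 and 0.00, and genes of lysosomal and cholesterol handling gather near 0.

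Ligand genes of the BMP family were higher in fibroblast nuclei. Of the 17 genes of the BMP and TGF-β list 12 were tested, and 5 (Bmp2, Bmp4, Bmp5, Bmp6 and Bmp7) were higher over both classes. Over endothelial nuclei 7 were higher and 2 lower. Bmp6 stood at 1052, 1138, 1040, 956, 1085 and 994 CPM in libraries 1 to 6. The libraries lay close together. Bmp6 was 21.6-fold above endothelial nuclei (log2 4.44, 4.34 to 4.54) and 16.6-fold above mural nuclei (log2 4.06, 3.91 to 4.21). Bmp5 lay between 73.5 and 145 CPM (4.09 and 2.01), Bmp7 between 52.2 and 92.3 CPM (3.05 and 2.35) and Bmp4 between 27.9 and 58.5 CPM (2.26 and 1.73). The genes lower than in endothelial nuclei were Tgfb1 (-1.22) and Tgfb2 (-1.19).

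WNT ligands and modulators were higher in 4 of 7 tested over endothelial and 3 of 7 over mural nuclei, and 0 were lower. Wnt5a, a ligand of the non-canonical pathway, stood at 86.4, 80.6, 62.9, 63.2, 84.6 and 95.4 CPM (log2 2.60 and 2.82), and Wnt6 between 6.08 and 16.6 CPM (3.55 and 3.60). The calls of Wnt6 ended in sub-clusters 1, 2 and 4 alone, where libraries 4 and 6 had 0 UMIs of it. Rspo3, a secreted enhancer of WNT signals, stood at 122, 91.7, 117, 71.7, 124 and 105 CPM (2.33 and 2.53). Dkk1, a WNT inhibitor, had 0 UMIs in fibroblast nuclei, and the list holds 14 genes in all.

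In the list of growth factors, the IGF axis and chemokines, 8 of 16 tested were higher and 2 lower than in endothelial nuclei, and 7 higher and 1 lower than in mural nuclei. Igf2, a growth factor released into the cerebrospinal fluid, stood at 51.8, 78.6, 70.2, 63.2, 68.0 and 166 CPM (log2 1.97 and 1.71). Ptgds, prostaglandin D synthase and a major protein of that fluid, stood at 1492, 1400, 1478, 1057, 1786 and 4192 CPM (2.45 and 2.34). Library 6 was above the other libraries for both genes, at 4192 CPM against at most 1786 CPM for Ptgds. Pdgfra, a receptor that fibroblasts share with oligodendrocyte progenitors, lay between 140 and 231 CPM (2.43 and 2.14), whereas Pdgfrb, a receptor of pericytes and fibroblasts, was higher than in endothelial nuclei (1.21) and lower than in mural nuclei (-1.58). Pdgfrb was among the genes that chose the mural class, so its lower level than in mural nuclei follows in part from that rule. Cxcl12, a chemokine, and Igfbp7 were lower than in endothelial nuclei (both -2.37).

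Transcription factor genes of mesenchyme and meninges were higher in 18 of 24 over endothelial and 18 of 23 over mural nuclei, 3 and 1 were lower, and 17 were higher over both, with median log2 ratios of 2.49 and 2.53. Foxd1, a factor of the meningeal mesenchyme, stood at 71.8, 76.6, 91.9, 48.6, 158 and 175 CPM (3.50 and 2.83). Foxc1, whose loss disturbs meninges and cortex, lay between 29.2 and 64.6 CPM (1.11 and 1.88), and the neighbouring genes Zic1 and Zic4 on chromosome 9 between 101 and 163 CPM and between 109 and 209 CPM (2.31 and 3.60 over endothelial nuclei). Tbx18, a T-box factor known from pericytes and fibroblasts, stood at 136 CPM against 5.86 CPM in endothelial and 19.0 CPM in mural nuclei. Bnc2, a zinc finger factor, lay between 436 and 902 CPM (4.12 and 4.35) and Eya2, a transcriptional coactivator, between 279 and 474 CPM (4.26 and 4.42). Tbx15, a T-box factor, stood at 2.63 over mural nuclei, but at -0.31 when nuclei with 3 or more UMIs of astrocyte, oligodendrocyte or myeloid markers were left out, which kept 80 fibroblast nuclei. The factors lower than in endothelial nuclei included Ebf1 (-2.18) and Meox1 (-1.49, and -0.83 with no call in sub-clusters 1, 2 and 4 alone), and Ebf1 was also lower than in mural nuclei (-1.62).

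Of 9 genes of arachnoid cells and tight junctions, 4 were higher over endothelial and 5 over mural nuclei, and 0 were lower. Cdh1, E-cadherin, lay between 18.5 and 49.8 CPM (log2 3.48 and 4.01), Klf5, a zinc finger factor of epithelia, between 25.5 and 83.1 CPM (2.06 and 2.22), and the connexin gene Gjb6 between 71.0 and 156 CPM (1.96 and 1.12). Of 10 proliferation genes, 3 could be tested over endothelial and 6 over mural nuclei, and 0 were called.

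Genes of lysosomal and cellular cholesterol handling, the process that Npc1 serves, stood near the vascular level. Of 18 tested, 1 was higher and 1 lower than in endothelial nuclei, 0 were called over mural nuclei, and the median log2 ratios were 0.05 and 0.06. The higher gene was Lrp1, a lipoprotein receptor (1.05), and the lower one Abcg1, a cholesterol exporter (-1.45). Npc1 stood at -0.07 (-0.35 to 0.19) over endothelial nuclei, and Npc2, its soluble partner, at 0.22 (-0.04 to 0.47). Apoe, the lipid carrier that astrocytes release, lay between 775 and 1521 CPM in fibroblast nuclei.

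Genes outside the lists were named by their ratio over all other nuclei, where 1272 of 12926 genes tested were higher (9.84%), 521 lower (4.03%) and the median log2 ratio was 0.28. Aox3, an aldehyde oxidase, stood at 157, 178, 221, 182, 302 and 339 CPM (log2 5.29 and 4.99 over endothelial and mural nuclei), and Cped1 at 882, 808, 894, 603, 971 and 1083 CPM (4.70 and 3.35). Il31ra, a cytokine receptor, Themis, known from thymocytes, Cyp1b1, a cytochrome P450 that can oxidise retinol, Nr1h4, the bile acid receptor FXR, and Scara5, a ferritin receptor, were also among the 15, with log2 ratios over endothelial nuclei between 4.10 and 5.30. Adamts12, a matrix protease, lay between 307 and 566 CPM (3.94 and 4.29).

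UMIs of these genes in excitatory neuron nuclei were taken as a background level, and whether they came from free RNA was not tested. After each nucleus was thinned to 2000 UMIs, a UMI of Slc6a13 was found in 47.6% of fibroblast nuclei and 0.675% of excitatory neuron nuclei, of Bmp6 in 62.2% and 2.03%, of Col4a6 in 32.1% and 0.338%, and of Aldh1a2 in 19.7% and 0.338%. Before thinning, the shares were 62.2% and 1.95% for Slc6a13, 70.6% and 6.88% for Bmp6, 40.6% and 1.68% for Col4a6, and 30.2% and 1.05% for Aldh1a2, at median depths of 3783 and 11470.5 UMIs. At equal depth the shares of Bmp6, Col4a6 and Aldh1a2, which the rule did not use, were above that background, while Slc6a13 is a rule gene and its share follows from the rule. Bicc1, the rule gene found in most fibroblast nuclei, was more frequent in excitatory neuron nuclei than these genes. It was found in 11.9% of them after thinning and 39.0% before, beside 68.9% and 90.3% of fibroblast nuclei. Thinning left out 104 fibroblast and 27 excitatory neuron nuclei with fewer UMIs. Ptgds showed a high background, with 62.3% of thinned fibroblast nuclei against 18.6% of excitatory neuron nuclei and 44.7% of endothelial nuclei. Its shares before thinning lay closer together, at 79.6%, 60.8% and 66.0%. Mki67, a marker of dividing cells, was found in 0.829% of thinned fibroblast nuclei (8 nuclei) against 0.443% of excitatory neuron nuclei. Before thinning the order was reversed, at 1.59% and 3.52%. Thinned endothelial and mural nuclei stood at 1.14% and 1.37%, so these shares show no level above background.

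Levels also differed between libraries in a common direction. Of the 134 listed or named genes higher than in endothelial nuclei, 80 had their highest level in library 6 and 64 their lowest in library 4. The same counts over all tested genes were not made, so the pattern cannot be called particular to these genes. Library 6 also held the fewest fibroblast nuclei (97) and UMIs in them (324889, against 1239870 in library 3), so its levels carry the most counting error. Markers of neurons moved with this, with summed levels in fibroblast nuclei of 1410 CPM in library 6 and 3623 CPM in library 4, the lowest and the highest of the 6. The oligodendrocyte list stood at 4030, 3097, 1360, 1175, 3634 and 810 CPM in libraries 1 to 6, with library 6 lowest, and the astrocyte list was highest in library 6, at 5522 CPM against 3195 to 3962 CPM in the others. Within the sub-clusters led by fibroblast genes, described next, 51 of the 134 were highest in library 6 and 51 lowest in library 4. The part of RNA of other cell types in these differences was not tested.

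Clustering of the 1069 fibroblast nuclei, with the 8 rule genes left out, gave 9 sub-clusters, numbered by size and described by their leading genes. Sub-clusters 1, 2 and 4, led by genes of the groups above, held 658 nuclei (61.6%). Sub-cluster 3 (149 nuclei, 13.9%) was led by neuronal genes such as Dlgap2 and Grin2a and had a median of 6473 UMIs, sub-cluster 7 (15 nuclei) by myelin genes such as Mog, and sub-cluster 8 (13 nuclei) by ciliary genes such as Dnah12. For these 177 nuclei (16.6%, from 4.12% in library 6 to 25.3% in library 4) the fibroblast label goes against the leading genes, and multiplets or free RNA were not separated from nuclei of other types. Sub-cluster 5 (112 nuclei) was led by Mrc1 and Stab1, markers of perivascular macrophages, together with Ptgds, and sub-cluster 6 (109 nuclei) by Myoc and by the astrocyte genes Gfap and Aqp4, with the astrocyte list at a summed 11533 CPM. In these sub-clusters, too, leading genes go against the label. Sub-cluster 9 (13 nuclei) was led by Ankrd44, Dach1 and Ebf1. Each of sub-clusters 1 to 6 was present in all 6 libraries.

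**Figure D5:**
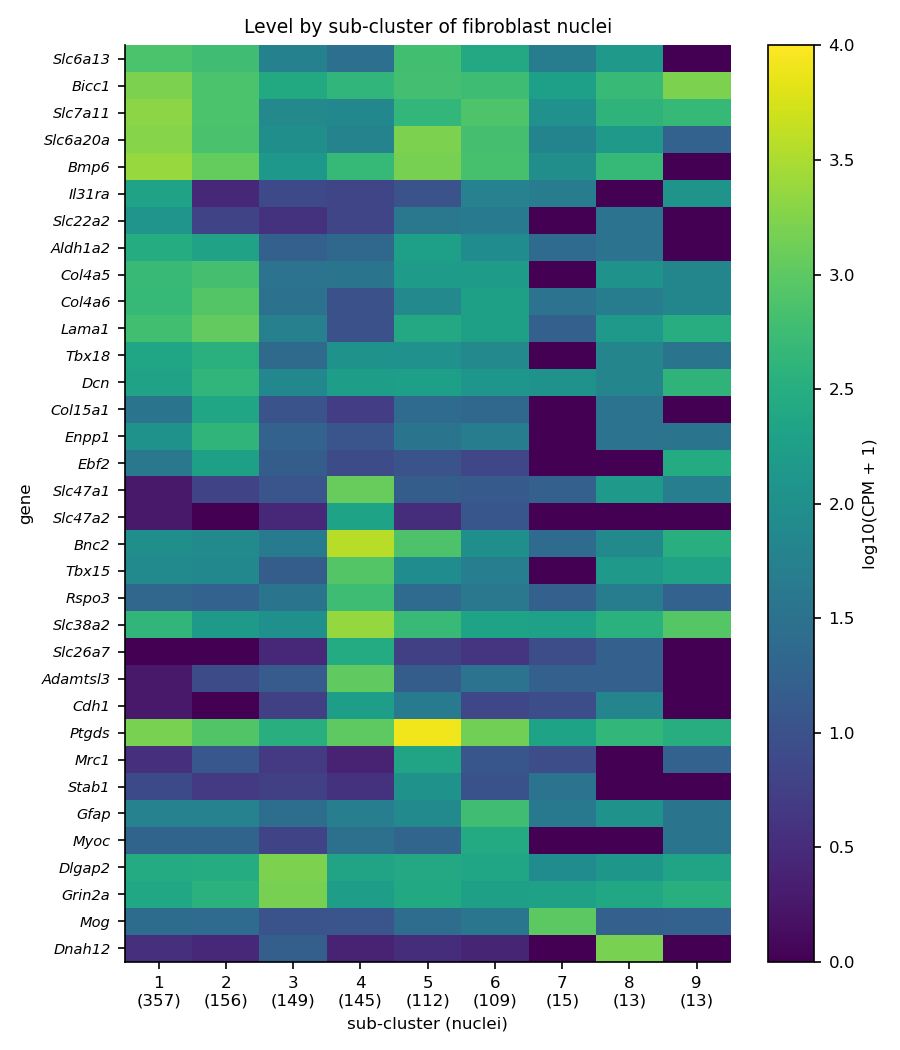
Level of each gene, as log10(CPM + 1), in the 9 sub-clusters of fibroblast nuclei, with the number of nuclei under each. Slc6a13 and Bmp6 stand high in sub-clusters 1, 2 and 5, Slc7a11 in sub-cluster 1, Slc47a1, Bnc2, Tbx15 and Rspo3 in sub-cluster 4, and neuronal, myelin and ciliary genes in sub-clusters 3, 7 and 8.

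Sub-cluster 1 (357 nuclei, 33.4%, from 27.8% to 47.2% by library) was led by Il31ra, at 200 CPM against 1.87 CPM in sub-cluster 2, and by the transporter genes Slc22a2 and Slc7a11. It held Slc7a11 at 2014 CPM, Slc6a20a at 1880 CPM, Bmp6 at 2421 CPM and Bicc1 at 1616 CPM. In sub-cluster 2 (156 nuclei, 14.6%) the same 4 genes stood at 733, 706, 1141 and 727 CPM. Sub-cluster 2 was led by Col15a1, a collagen of basement membrane zones, at 221 CPM against 34.2 CPM in sub-cluster 1, and by Enpp1, a pyrophosphate-forming enzyme, at 416 against 112 CPM. In library 5 Col15a1 stood at 27.5 CPM (1 UMI) in sub-cluster 2 and 31.2 CPM in sub-cluster 1. Of the basement membrane genes, Col4a1 stood at 367 against 123 CPM, Col4a6 at 841 against 479 CPM (696 to 1133 against 383 to 866 by library) and Lama1 at 1103 against 609 CPM (660 to 1789 against 386 to 824 by library). The library ranges of the last named genes overlap, and in library 5 Lama1 stood at 660 CPM in sub-cluster 2 and 667 CPM in sub-cluster 1. Col4a5 stood at 667 against 496 CPM in the sums, but lower in sub-cluster 2 in libraries 4 and 6. Slc6a13 stood at 725 CPM in sub-cluster 1 and 592 CPM in sub-cluster 2.

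Sub-cluster 4 (145 nuclei, 13.6%, from 11.1% to 16.8% by library) held most nuclei with a UMI of Slc47a1. Of 157 fibroblast nuclei with such a UMI, 135 (86.0%) were in sub-cluster 4, and within it the gene was found in 93.1% of nuclei, from 88.9% to 97.2% by library. Slc6a13 was found in 9 of its 145 nuclei (6.21%), and 8 fibroblast nuclei held UMIs of both genes. The 2 genes thus marked nearly separate nuclei, although neither was used in the clustering. The requirement of 3 rule genes touches both, so this split is no test.

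Other genes differed between sub-cluster 4 and sub-clusters 1 and 2. The clustering could use every gene outside the rule, so these differences describe the sub-clusters and are no separate evidence of the split. Slc26a7, Slc47a2 and Car13, given below, were among the leading genes of sub-cluster 4. Bnc2 stood at 3691 CPM in sub-cluster 4, between 2809 and 4334 CPM by library, against 96.4 and 80.6 CPM in sub-clusters 1 and 2. Tbx15 stood at 850 CPM against 78.0 and 73.1 CPM, and Rspo3 at 562 CPM against 20.2 and 16.9 CPM. Slc38a2, a transporter of small neutral amino acids, stood at 2354 CPM against 421 and 148 CPM, and Cdh1 at 168 CPM against 0.877 and 0 CPM. In the opposite direction, Lama1 and Col4a6 each stood at 8.71 CPM in sub-cluster 4 and Slc7a11 at 72.6 CPM. Slc26a7, an anion exchanger, Slc47a2, the neighbour of Slc47a1 on chromosome 11, and Car13, a carbonic anhydrase, stood at 293, 207 and 158 CPM in sub-cluster 4 and at no more than 0.877 CPM in sub-clusters 1 and 2. Fn1, lower than in endothelial nuclei over all fibroblast nuclei, stood at 422 CPM in sub-cluster 4, between 155 and 759 CPM by library, against 306 CPM in endothelial nuclei.

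Sub-cluster 5 held Ptgds at 8173 CPM, between 5675 and 21502 CPM by library with library 6 highest, against 1576 CPM in sub-cluster 1. It held Slc6a20a at 1650 CPM and Mrc1 at 218 CPM. The mural list reached 3 UMIs in 29 nuclei of sub-cluster 5 (25.9%), against 9.35% of all fibroblast nuclei. At least 3 UMIs of the microglia and macrophage list were found in 24 of its 112 nuclei (21.4%), so most of its nuclei held fewer, and at resolution 1.0 its nuclei went mainly into 3 groups of 62, 24 and 24, one of which also took 37 nuclei of the neuronal sub-cluster 3.

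Markers of other cell types were present in fibroblast nuclei as follows. At least 3 UMIs of the astrocyte list were found in 93.3% of them, of the neuron list in 86.4%, of the oligodendrocyte list, which holds the fibroblast-expressed Pdgfra, in 74.9%, of the endothelial list in 24.5%, of the ependymal and choroid plexus list in 42.8%, of the mural list in 9.35% and of the microglia and macrophage list in 5.05%. In sub-clusters 1, 2 and 4 alone, 2 of the 8 astrocyte genes, Slc1a3 and Gja1, were called higher than in endothelial nuclei (log2 1.36 and 1.25). There 1 was lower (Gpc5, -1.37), Slc1a2 stood at -0.85, and over mural nuclei 0 were higher and 5 lower. Slc1a3 and Gja1 also counted in the filter that left 80 fibroblast nuclei. The summed level of the astrocyte list was 3830 CPM (3195 to 5522 by library), against 2710 to 4013 CPM in endothelial and 7416 to 13159 CPM in mural nuclei. That of the endothelial list was 390 CPM (351 to 425), against 5209 CPM in endothelial nuclei, and 9 of its 10 genes were lower, while Cdh5, VE-cadherin, stood at 67.6 CPM in fibroblast and 68.3 CPM in endothelial nuclei. That difference follows in part from the rules, since Flt1 of this list was limited in fibroblast nuclei and endothelial genes chose the endothelial class. Cdh5 was present in the sub-clusters led by fibroblast genes, at 117, 93.7 and 84.2 CPM in sub-clusters 1, 2 and 4. The part of multiplets and free RNA in these values was not tested.

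The calls were made again without sub-clusters 3, 7 and 8. Calls changed for 25 listed and named genes over endothelial and 22 over mural nuclei, and for 46 and 37 in sub-clusters 1, 2 and 4 alone. In both settings 0 of the 162 and 0 of the 145 genes called at first changed sign. Without sub-clusters 3, 7 and 8 the log2 ratio of Bmp6 over endothelial nuclei went from 4.44 to 4.82, of Col4a6 from 5.04 to 5.43 and of Slc6a13 from 4.96 to 5.34. In sub-clusters 1, 2 and 4 alone, Bmp6 lay between 1298 and 1827 CPM by library, Slc6a13 between 391 and 578 CPM and Col4a6 between 345 and 597 CPM.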

How the data were processed

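Nuclei from the forebrains of 6 mice at postnatal day 16 were profiled with 10x Genomics 3′ chemistry. The deposited values are whole-number UMI counts, which the authors left unnormalized in 1 joined matrix of 32285 genes and 75878 barcodes. Its header names Cell Ranger 6.0.0, while the submitters' processing notes name Cell Ranger 2.1.1 and mm10. The methods of the study describe another alignment, removal of empty droplets and multiplets, and imputation. Which of those steps the matrix went through is not known here. No doublet caller was run, so multiplets may be among the fibroblast nuclei.

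Nuclei with a mitochondrial share at or above 10% (11) were left out. The nuclei, gene lists and comparison classes were chosen with earlier results of these data known. Counts were summed by class and library and scaled to a total of 1000000 (CPM). Genes with at least 20 UMIs over both classes and a mean of at least 5 CPM were tested, and a call needed a 2-fold difference and the same direction in 6 of 6 libraries. Log2 ratios carry exact binomial intervals and shares Clopper-Pearson intervals at 95%, which cover counting error only. Nuclei are not replicates and libraries carry no group, so no p-value is given. Excitatory neuron nuclei had at least 3 UMIs of Slc17a7 and at most 1 of Gad1 and Gad2. Members were clustered with scanpy 1.11.5 and leidenalg 0.10.2 (2000 variable genes, 20 components, 15 neighbours, resolution 0.5). Scaling by TMM used edgeR 4.0.16 on the class sums. The contrast was also run on simulated counts drawn from a pooled profile. These held no differences between libraries, free RNA or multiplets, so that run does not bear on such errors in the calls. Promoter sequences came from RefSeq (GRCm38.p6), and gene coordinates in the text are from the same table or build.

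Named genes were the 8 rule genes, up to 6 members with the highest and 3 with the lowest ratio of each list, any listed gene at 0 UMIs, the 15 leading genes outside the lists with at least 100 UMIs, the 5 leading genes of each sub-cluster, Npc1 and Xist. Other list members and sub-cluster genes given in the text, among them Slc6a12, Grin2a and Aqp4, were chosen after their values were seen.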

Additional observations from a re-analysis of the deposited data

How the results depend on the processing

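No paired analysis was possible because no source ties a barcode suffix to a mouse, so the libraries have neither groups nor numbers that could be matched. The share of fibroblast nuclei (1.41%) was 4.35% with at least 2 rule genes, 0.589% with at least 4, 0.912% after thinning to 2000 UMIs and, in an alternative chosen after seeing the data, 1.18% without sub-clusters 3, 7 and 8. It was 1.33% to 1.44% when each library was left out in turn. The 9 sub-clusters became 15 at resolution 1.0. Leaving out each library gave 697 to 759 genes higher and 488 to 561 lower than in endothelial nuclei, and 631 to 683 higher and 326 to 385 lower than in mural nuclei. A minimum of 50 UMIs and 20 CPM gave 385 higher and 312 lower, and 361 and 211 over mural nuclei. Nuclei with under 3 UMIs of astrocyte, oligodendrocyte and myeloid markers (80 fibroblast, 580 endothelial and 123 mural nuclei) gave 138 higher and 714 lower over endothelial nuclei, and 112 higher and 159 lower over mural nuclei. In these nuclei 36 of 84 list counts moved by more than 1.5 times, with genes higher over endothelial nuclei going from 16 to 1 for collagens, 14 to 1 for elastic fibres and proteoglycans, 14 to 6 for transporters, 6 to 2 for retinoic acid, 7 to 2 for BMP and TGF-β, 4 to 0 for WNT, 8 to 2 for growth factors and 18 to 3 for transcription factors. At least 4 rule genes (447 nuclei) gave 509 lower than in mural nuclei. Without sub-clusters 3, 7 and 8 (892 nuclei, chosen after seeing the data) 829 genes were lower than in endothelial and 700 lower than in mural nuclei. With only sub-clusters 1, 2 and 4 (658 nuclei, likewise chosen after) 1098 were lower than in endothelial nuclei, and 961 higher and 988 lower than in mural nuclei. The log2 ratio over mural nuclei changed sign for 5 called genes in the nuclei with few glial and myeloid UMIs: Gm30624 from 1.76 to -0.13, Tbx15 from 2.63 to -0.31, Rfx4 from -1.48 to 1.97, Gm6145 from -1.90 to 0.56 and Ntsr2 from -1.01 to 0.14. The cause was not tested beyond the smaller numbers of nuclei given. Under the other alternatives, 0 called genes changed sign. TMM scaling moved 24 of 543 gene values by more than their interval. Depth limits low genes, since a class sum near 3 UMIs cannot be told from 0.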

Other observations

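The split of Xist in library 6 was not particular to fibroblast nuclei. It was found in 45.4% of its fibroblast, 32.7% of its endothelial and 47.4% of its excitatory neuron nuclei, while Y-linked genes were found in 0% of its fibroblast nuclei.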
